A study of Arabidopsis thaliana with 12 samples.

Results

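Leaves of tpt-2, an Arabidopsis thaliana mutant in the chloroplast triose phosphate/phosphate translocator (TPT), were compared with leaves of Col-0, its reference accession, after 9 h of strong light. Genes were kept where the mean over the 6 libraries of this comparison was at least 1 FPKM (fragments per kilobase of transcript, scaled to a fixed number of assigned fragments in each library), which held for 17484 of the 32833 genes in the deposited table. Of these, 17368 are nuclear, 103 carry chloroplast (ATCG) identifiers and 13 mitochondrial (ATMG) identifiers, and these classes are described apart. Plants of both genotypes were 21 d old, had been raised on 10 h of light per day and were shifted as the night ended to 500 µmol photons m-2 s-1. Each genotype gave 3 biological replicates, out of 12 libraries in the series, the other 6 being from 18 h. All results rest on 1 mutant allele, and leaves sampled before the shift are not analysed here, so a difference present beforehand cannot be told apart from one in the response to light.

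The triose phosphates that photosynthesis makes in the chloroplast stroma leave it by day mainly through TPT, in exchange for phosphate, and feed sucrose synthesis in the cytosol. When they are not exported they can go into starch, whose breakdown supplies maltose and glucose to the cytosol. Leaf cells sense sugar status in part through the kinase SnRK1, which is active when energy is scarce, and TOR, which promotes ribosome production when sugar is plentiful.

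TPT, the mutated gene, had 448, 328 and 405 FPKM in Col-0 and 2.52, 2.94 and 3.85 FPKM in tpt-2 (AT5G46110, log2 fold change -6.59, SE 0.13, limma adjusted p 5.6e-11). The mutant libraries all lay far below the Col-0 libraries, as their labels say. The 6 libraries held 12.4 to 14.3 M assigned fragments, as recovered from the steps between low values. Pearson's r over genes was 0.968 to 0.985 between Col-0 libraries, 0.979 to 0.986 between tpt-2 libraries and 0.932 to 0.960 across genotypes. Col-0 replicate 3 stood apart for wound and stress genes: of 22 jasmonate genes tested it held the highest of the 6 values in 20, with a median of 3.34 times the mean of the other Col-0 libraries, against 14.4% of all nuclear genes. The third tpt-2 replicate stood apart for the chloroplast loci, which took 3.22% of its summed FPKM against 0.611% and 0.599% in the other tpt-2 libraries. Markers of guard cells, trichomes and dividing cells gave 0 limma calls among 8 genes tested, with 3 higher and 1 lower at an unadjusted p under 0.05, which 35.6% of all nuclear genes reached. All 3 xylem markers were higher in tpt-2, their summed level being 23.1 to 28.8 FPKM in Col-0 and 32.8 to 42.5 FPKM in tpt-2. The epidermal marker PDF1, the phloem marker SMXL5 and the mesophyll marker CA1 were each called higher by 0.34 to 0.52 on the log2 scale. The other members of these lists were not called. Of those, the phloem markers APL (-0.26) and SUC2 (-0.07) and the mesophyll marker RBCS1A (-0.01) were below 0. The epidermal ATML1 (0.2) and KCS10 (0.09) and the mesophyll CAB1 (0.25) and CAB2 (0.26) were above 0. In bulk leaves, fewer cells of a type and less RNA per cell cannot be told apart, and the part of cell makeup in the results was not tested.

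Among nuclear genes, 3840 (22.1%) passed a limma adjusted p of 0.05, of which 2309 (13.3%) were higher and 1531 (8.82%) lower in tpt-2. A change of at least 2-fold was seen in 270 of the higher genes (1.55% of those tested) and in 142 of the lower ones (0.818%), and the groups did not overlap in 37.6%. An unadjusted p under 0.05 was reached by 6175 nuclear genes (35.6%), the share beside which counts at that threshold are given. All fold changes are differences of log2(FPKM + 1), which understates changes of low genes. The median nuclear gene differed by 0.07. The division into higher and lower depended on scaling. Median-ratio scaling moved that median to -0.01 and gave 1467 higher and 2190 lower, and quantile normalization gave 1568 and 1829. Leaving out single libraries moved the nuclear count to 2312 (tpt-2 replicate 2 left out) or 2348 (tpt-2 replicate 1 left out). List counts below are read against 13.3% and 8.82%, and medians against 0.07.

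**Figure D1:**
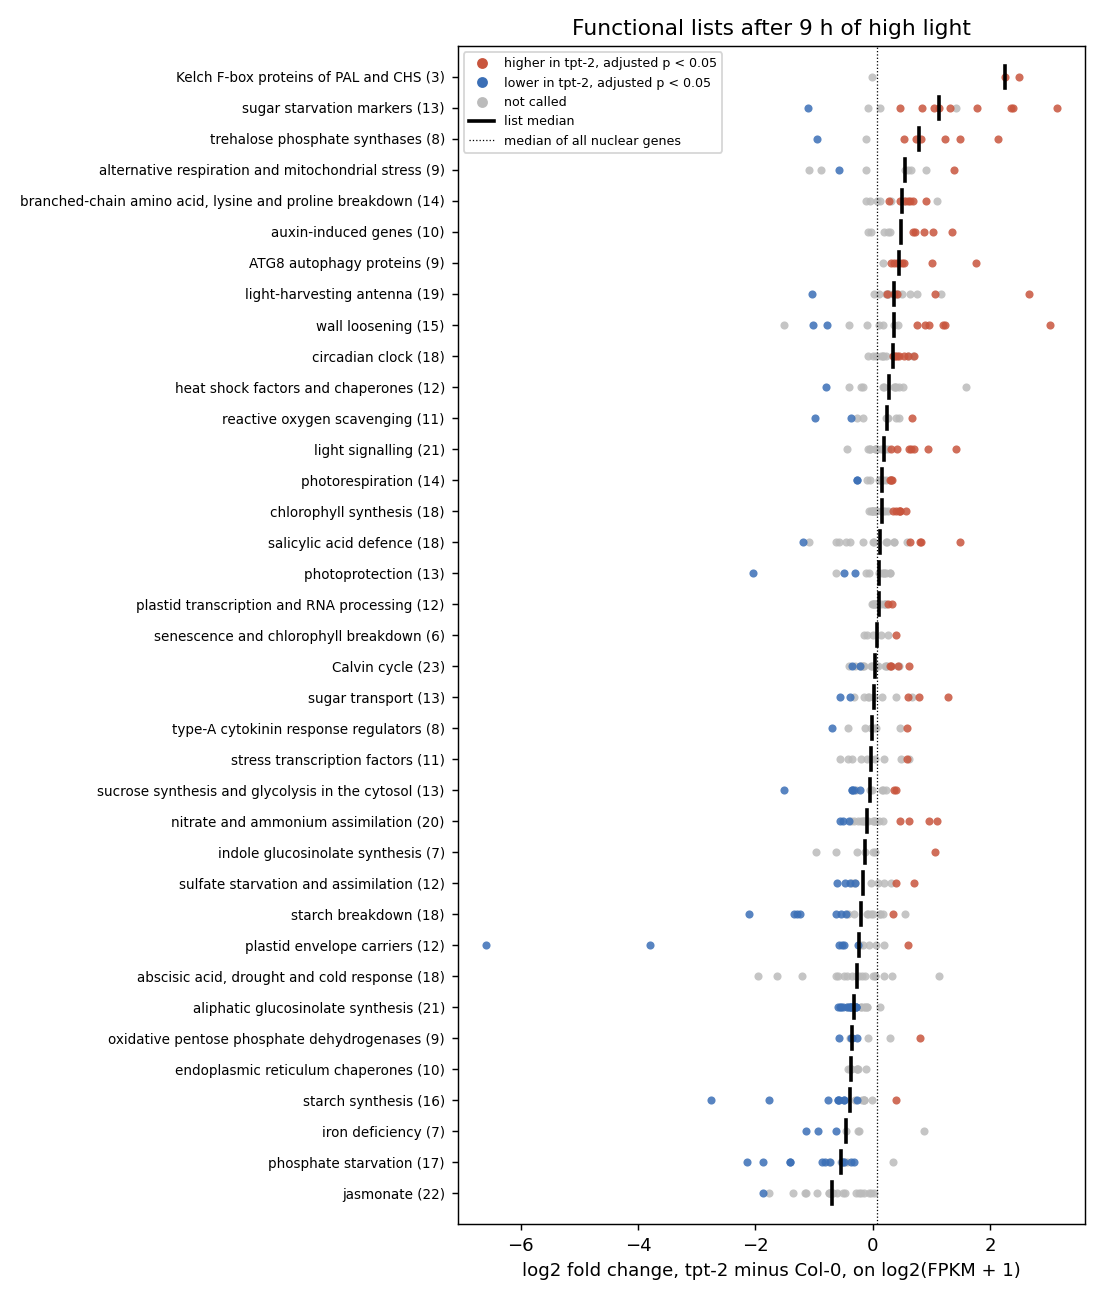
Log2 fold change (tpt-2 minus Col-0, on log2(FPKM + 1)) of every member tested of 37 functional lists, with the number tested in brackets, called genes in red (higher) or blue (lower), the list median as a black bar and the median of all nuclear genes as a dotted line. Starvation markers, trehalose phosphate synthases and ATG8 genes lie mostly to the right, and starch, phosphate and glucosinolate genes mostly to the left.

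Sequence before the annotated gene starts is shown for 5 genes of 3 groups described further on, chosen because the motif known for their group is present in it. The windows are the 300 bases upstream of the start in RefSeq TAIR10.1, whose chromosomes were used with their own annotation, and letters of a motif on either strand are in capitals. Capitals mark P1BS (GNATATNC, the binding site of the phosphate regulator PHR1) in PS2 (chr1:27466349-27466648, minus strand) and SRG3 (chr3:350011-350310, minus strand), and the evening element (AAAATATCT, bound by clock MYB factors) in BOA (chr5:24003588-24003887, plus strand) and TOC1 (chr5:24674663-24674962, plus strand). In the ribosomal protein gene AT5G16130 (chr5:5268121-5268420, plus strand) they mark the telo-box (AAACCCTA) and site II (TGGGCN), elements known from plant ribosomal protein promoters.
PS2: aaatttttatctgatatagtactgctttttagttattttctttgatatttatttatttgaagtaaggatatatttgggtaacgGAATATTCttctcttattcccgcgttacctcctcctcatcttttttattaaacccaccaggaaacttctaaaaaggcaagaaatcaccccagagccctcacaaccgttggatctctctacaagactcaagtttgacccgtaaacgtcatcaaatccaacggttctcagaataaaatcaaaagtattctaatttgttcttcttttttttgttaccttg
SRG3: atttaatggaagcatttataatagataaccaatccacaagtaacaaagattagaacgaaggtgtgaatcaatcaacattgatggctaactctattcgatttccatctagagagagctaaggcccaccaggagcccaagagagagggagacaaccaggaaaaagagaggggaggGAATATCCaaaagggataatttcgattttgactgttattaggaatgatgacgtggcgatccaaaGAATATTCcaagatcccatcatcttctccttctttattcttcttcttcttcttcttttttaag
BOA: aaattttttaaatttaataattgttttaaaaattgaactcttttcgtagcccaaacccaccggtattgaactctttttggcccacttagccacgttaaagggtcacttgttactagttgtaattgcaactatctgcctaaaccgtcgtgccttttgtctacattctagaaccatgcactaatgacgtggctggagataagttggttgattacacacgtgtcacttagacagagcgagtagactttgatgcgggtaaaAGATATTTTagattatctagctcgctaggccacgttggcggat
TOC1: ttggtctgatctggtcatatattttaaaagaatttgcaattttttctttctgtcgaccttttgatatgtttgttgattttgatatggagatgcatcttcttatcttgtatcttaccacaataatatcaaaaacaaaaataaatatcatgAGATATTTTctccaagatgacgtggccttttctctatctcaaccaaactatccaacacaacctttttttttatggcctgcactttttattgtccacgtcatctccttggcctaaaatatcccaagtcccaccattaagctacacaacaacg
AT5G16130: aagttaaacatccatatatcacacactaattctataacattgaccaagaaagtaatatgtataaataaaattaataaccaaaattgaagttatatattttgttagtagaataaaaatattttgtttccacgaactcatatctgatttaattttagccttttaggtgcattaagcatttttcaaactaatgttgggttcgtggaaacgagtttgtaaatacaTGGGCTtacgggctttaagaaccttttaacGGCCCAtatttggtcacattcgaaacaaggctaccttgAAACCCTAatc
P1BS was present in the windows of 6 of 17 phosphate starvation genes tested (35.3%), against 1093 of 16914 windows of all protein-coding genes tested (6.46%). The evening element was present in 6 of 18 clock genes (33.3%), against 3.09% of all windows. Cytosolic ribosomal protein genes held a telo-box in 27 of 139 windows (19.4%) and site II in 93 (66.9%), against 4.51% and 29.1%. The G-box CACGTG was present in 1 of 13 sugar starvation genes and 1 of 8 trehalose phosphate synthases, against 8.08% of all windows, and the heat shock element core GAANNTTC in 3 of 12 heat shock genes, against 11.2%. Plastid ribosomal protein genes, described with the ribosomal genes, held a telo-box in 4.55% of windows and site II in 31.8%. A match is a description of letters, and motifs were searched on both strands without regard to overlap with one another.

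Most of the low-sugar response genes that passed the filter were higher in tpt-2. Of 13 sugar starvation markers tested (2 others were below the filter), 9 were called higher and 1 lower, with a median of 1.12. The dormancy-associated gene AT2G33830 had 59.7, 50.6 and 29.98 FPKM in Col-0 and 409, 419 and 384 FPKM in tpt-2 (log2 fold change 3.14, SE 0.39, limma adjusted p 0.000364). Its relative DYL1 had 25.1, 22.7 and 15.9 FPKM in Col-0 and 148, 109 and 83.7 FPKM in tpt-2 (AT1G28330, log2 fold change 2.35, SE 0.23, limma adjusted p 8.89e-05). Both genes are known to be repressed by sugars, and in neither did the groups overlap. DIN10, a raffinose synthase family gene named for dark induction, had 4.51, 2.05 and 7.195 FPKM in Col-0 and 30.6, 34.4 and 17.03 FPKM in tpt-2 (AT5G20250, log2 fold change 2.4, SE 0.33, limma adjusted p 0.000617). The beta-galactosidase gene BGAL4 (AT5G56870, 1.78), the bZIP factor gene BZIP63 (AT5G28770, 1.32), the SnRK1 beta subunit gene AKINBETA1 (AT5G21170, 1.12) and the related factor gene BZIP1 (AT5G49450, 1.05) were also higher. BZIP11, whose translation is repressed by sucrose, was the 1 member called lower (AT4G34590, -1.11). SEN1 was not called, at 0.1501, 0 and 0.208 FPKM in Col-0 and 0.681, 9.002 and 0.584 FPKM in tpt-2, the second tpt-2 replicate lying far above the rest. This gene met the filter on low values through tpt-2. The count and median of the list thus depend in part on the filter and are no support for a direction. AT3G15450, annotated as an aluminum-induced protein with YGL and LRDR motifs and among the 10 largest nuclear rises, had 3.83, 1.095 and 2.86 FPKM in Col-0 and 38.8, 35.98 and 14.9 FPKM in tpt-2 (log2 fold change 3.08, SE 0.41, limma adjusted p 0.000498).

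Trehalose phosphate synthase genes were mostly higher. Trehalose 6-phosphate signals sucrose supply, and the class II members are regulatory proteins whose transcripts respond to sugar. Of 8 tested, 6 were higher and 1 lower, with a median of 0.78. TPS8 had 1.78, 0.984 and 2.52 FPKM in Col-0 and 11.4, 12.5 and 8.66 FPKM in tpt-2 (AT1G70290, log2 fold change 2.13, SE 0.21, limma adjusted p 9.14e-05), TPS11 rose by 1.48 on the log2 scale and TPS9 by 1.24. TPS5 went the other way, at 29.7, 34.5 and 21.9 FPKM in Col-0 and 13.6, 12.5 and 16.3 FPKM in tpt-2 (AT4G17770, log2 fold change -0.96, SE 0.18, limma adjusted p 0.00296), again with groups that did not overlap.

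Amino acids and recycled cell contents can serve as fuel when sugar is scarce. The breakdown of branched-chain amino acids, lysine and proline had 7 of 14 genes higher and 0 lower (10 and 0 at an unadjusted p under 0.05), with a median of 0.5, and 5 higher on omitting Col-0 replicate 2 or tpt-2 replicate 1. MCCA, a subunit of methylcrotonyl-CoA carboxylase in leucine breakdown, had 3.55, 2.39 and 4.04 FPKM in Col-0 and 6.02, 8.13 and 6.99 FPKM in tpt-2 (AT1G03090, log2 fold change 0.91, SE 0.15, limma adjusted p 0.00181), and DIN4, a subunit of the branched-chain keto acid dehydrogenase, rose by 0.69. ATG8 proteins coat the membranes of autophagosomes, and 8 of their 9 genes were higher. ATG8E had 8.58, 3.74 and 6.87 FPKM in Col-0 and 27.3, 26.2 and 16.9 FPKM in tpt-2 (AT2G45170, log2 fold change 1.75, SE 0.24, limma adjusted p 0.000635) and ATG8F rose by 1.01. The number of ATG8 genes called was 4 without tpt-2 replicate 1, 5 when Col-0 replicate 2 was omitted, and 5 after median-ratio scaling or in a fit of the 6 libraries only.

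Of 3 Kelch F-box genes tested, whose products target enzymes of phenylpropanoid and flavonoid synthesis for degradation, 2 rose and 0 fell. The other 2 of the 5 listed were below the filter. The F-box gene AT1G23390, whose product acts on chalcone synthase, had 4.93, 4.94 and 5.696 FPKM in Col-0 and 37.2, 42.03 and 24.2 FPKM in tpt-2 (log2 fold change 2.49, SE 0.23, limma adjusted p 6.15e-05). AT1G80440, whose product acts on phenylalanine ammonia lyase, had 0.544, 0.422 and 0.419 FPKM in Col-0 and 6.99, 7.99 and 3.61 FPKM in tpt-2 (log2 fold change 2.24, SE 0.23, limma adjusted p 0.000114). The third member, AT1G15670, had 1.73, 1.22 and 5.08 FPKM in Col-0 and 2.47, 2.52 and 1.90 FPKM in tpt-2 and did not pass. AT1G80440 met the filter on low values through tpt-2, so the count is no support for a direction. Anthocyanin enzyme genes were low in the same plants. DFR, LDOX, TT7, AT4G14090, UF3GT and AT5MAT fell by 3.45 to 4.43 on the log2 scale and made up 6 of the 10 largest nuclear falls after TPT.

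**Figure D2:**
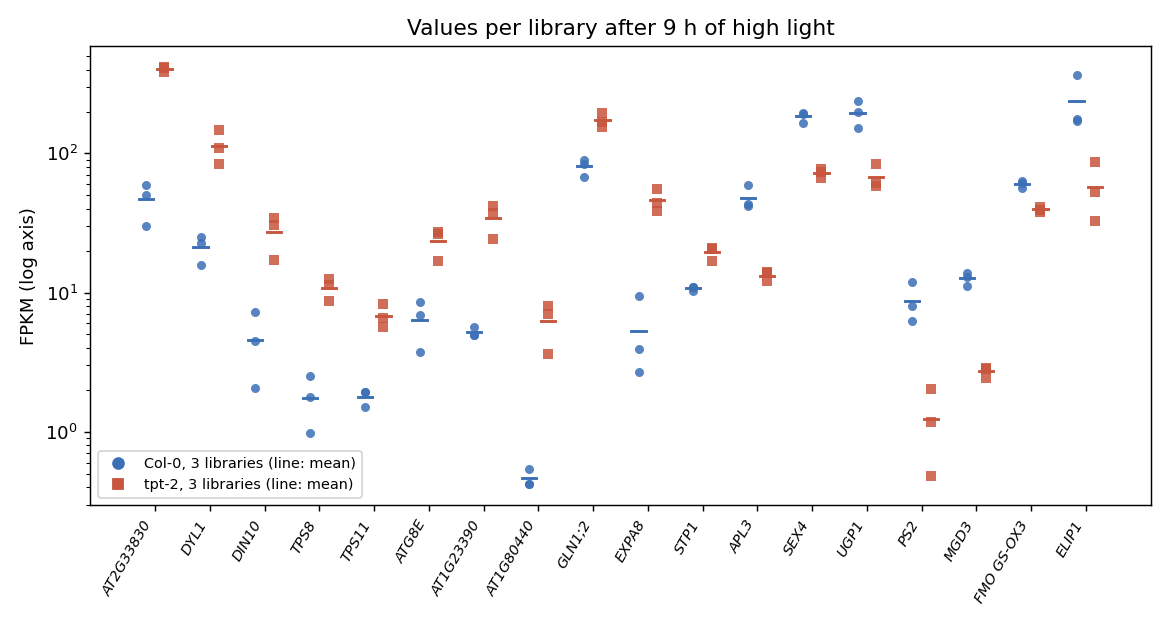
FPKM on a log axis in each of the 3 Col-0 (circles) and 3 tpt-2 (squares) libraries for 18 genes named in the text, with lines at the group means. In every gene drawn the groups do not overlap; the 11 on the left are higher in tpt-2 and the 7 on the right lower.

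Many genes of starch synthesis and breakdown were lower in tpt-2. In starch synthesis 9 of 16 genes were lower and 1 higher, with a median of -0.39. Col-0 replicate 2 held the highest value for 11 of the 16 (68.8%), against 20.05% of all nuclear genes, and on omitting it 8 were lower. GBSS1, the granule-bound synthase that makes amylose, had 10.3, 23.2 and 20.1 FPKM in Col-0 and 2.41, 1.74 and 1.03 FPKM in tpt-2 (AT1G32900, log2 fold change -2.75, SE 0.27, limma adjusted p 7.85e-05). APL3, a large subunit of ADP-glucose pyrophosphorylase that sugars are known to induce, had 42.1, 59.2 and 43.3 FPKM in Col-0 and 12.04, 13.7 and 13.99 FPKM in tpt-2 (AT4G39210, log2 fold change -1.77, SE 0.13, limma adjusted p 1.11e-05), and the branching enzyme gene SBE2.2 fell by 0.77 on the log2 scale. Starch breakdown had 7 of 18 lower and 1 higher. The glucan phosphatase gene SEX4 had 191, 197 and 166 FPKM in Col-0 and 77.1, 66.6 and 74.1 FPKM in tpt-2 (AT3G52180, log2 fold change -1.34, SE 0.09, limma adjusted p 7.39e-06), and the beta-amylase gene BAM3 (AT4G17090, -1.29) and the debranching enzyme gene ISA3 (AT4G09020, -1.25) were also lower. BAM5, an amylase outside the chloroplast, had 3.92, 8.44 and 27.8 FPKM in Col-0 and 0.977, 2.44 and 1.43 FPKM in tpt-2 (AT4G15210, log2 fold change -2.11, SE 0.70, limma adjusted p 0.0491), and its call was lost when any library but Col-0 replicate 1 was omitted, and without the filter on low values or the mean-variance trend. The breakdown list had 5 calls when tpt-2 replicate 2 was omitted and 6 when Col-0 replicate 2 or tpt-2 replicate 1 was.

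Of 12 carriers of the inner envelope, TPT included, 6 were lower and 1 higher. GPT2, a glucose 6-phosphate carrier, had 21.9, 50.7 and 53.1 FPKM in Col-0 and 2.15, 1.38 and 2.16 FPKM in tpt-2 (AT1G61800, log2 fold change -3.8, SE 0.31, limma adjusted p 2.61e-05). The phosphoenolpyruvate carrier gene PPT1 (AT5G33320, -0.5), the dicarboxylate carrier gene DIT1 (AT5G12860, -0.58) and the ATP carrier gene NTT1 (AT1G80300, -0.52) were also lower. The exception was PGLCT, which exports the glucose released from starch, with 43.5, 31.4 and 42.99 FPKM in Col-0 and 62.7, 65.1 and 52.2 FPKM in tpt-2 (AT5G16150, log2 fold change 0.61, SE 0.12, limma adjusted p 0.00463).

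Cytosolic sucrose synthesis and glycolysis had 2 of 13 genes higher and 5 lower. UGP1, a UDP-glucose pyrophosphorylase gene, had 198, 237 and 153 FPKM in Col-0 and 58.04, 60.8 and 83.6 FPKM in tpt-2 (AT3G03250, log2 fold change -1.52, SE 0.15, limma adjusted p 9.59e-05), while UGP2, its close relative, had 33.6, 29.9 and 29.1 FPKM in Col-0 and 42.4, 44.2 and 35.97 FPKM in tpt-2 (AT5G17310, log2 fold change 0.39, SE 0.10, limma adjusted p 0.0171). The rise of UGP2 was lost after median-ratio scaling and on omitting Col-0 replicate 2 or 3, or tpt-2 replicate 1 or 2. With the same libraries omitted the list's total fell to 4. Among 13 sugar carriers, 3 were higher and 2 lower, and the 2 lower ones were lost without tpt-2 replicate 1 or 2. STP1, a hexose importer, had 11, 10.3 and 10.96 FPKM in Col-0 and 20.4, 20.9 and 16.96 FPKM in tpt-2 (AT1G11260, log2 fold change 0.79, SE 0.09, limma adjusted p 0.0002295), STP14 rose by 1.27 and SWEET11, a sucrose exporter of the phloem parenchyma, by 0.6. In the oxidative pentose phosphate pathway, G6PD1, a plastid glucose 6-phosphate dehydrogenase gene, had 37.6, 27.9 and 35.8 FPKM in Col-0 and 58.8, 65.9 and 53.9 FPKM in tpt-2 (AT5G35790, log2 fold change 0.81, SE 0.10, limma adjusted p 0.000409). Of the other dehydrogenase genes 4 of 8 were lower, but 0 without tpt-2 replicate 1 and 1 on omitting Col-0 replicate 1 or 2, or tpt-2 replicate 2.

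In the Calvin cycle, which fixes carbon dioxide in the stroma, 4 of 23 genes were higher and 2 lower, with a median of 0.04, and in photorespiration 3 of 14 and 2. Median-ratio scaling turned these to 1 higher and 6 lower, and to 0 and 2. Quantile normalization gave 4 higher and 5 lower in the Calvin cycle, and 6 and 1 in photorespiration. In both lists the division into higher and lower thus changed with the scaling. Leaving out single libraries gave 2 to 8 Calvin cycle calls, the fewest on omitting Col-0 replicate 3 or tpt-2 replicate 2, and 1 to 5 in photorespiration, the fewest on omitting Col-0 replicate 2 or 3 or tpt-2 replicate 1. Chlorophyll synthesis had 6 of 18 higher and 0 lower (7 and 0 at an unadjusted p under 0.05), led by HEMC, the porphobilinogen deaminase, with 222, 183 and 199.9 FPKM in Col-0 and 282, 313 and 295 FPKM in tpt-2 (AT5G08280, log2 fold change 0.56, SE 0.09, limma adjusted p 0.00185). Antenna genes had 5 of 19 higher and 1 lower. The number higher was 1 on omitting tpt-2 replicate 1 or 2, 2 on omitting Col-0 replicate 2, 3 on omitting Col-0 replicate 3, and 2 after median-ratio scaling. LHB1B1, an antenna protein of photosystem II, had 77.3, 31.04 and 58.8 FPKM in Col-0 and 516, 324 and 224 FPKM in tpt-2 (AT2G34430, log2 fold change 2.66, SE 0.45, limma adjusted p 0.00197). Its near-identical copies make its level uncertain. ELIP1, an early light-induced protein that binds free chlorophyll, had 176, 365 and 171 FPKM in Col-0 and 32.7, 52.7 and 86.6 FPKM in tpt-2 (AT3G22840, log2 fold change -2.04, SE 0.39, limma adjusted p 0.003802), and 3 of 13 photoprotection genes were lower and 0 higher (3 and 3 at an unadjusted p under 0.05). On omitting tpt-2 replicate 3 these counts were 3 and 3, and on omitting tpt-2 replicate 1 they were 2 and 0.

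Genes for ribosomal proteins of the cytosol were lower in tpt-2, and many for those of the plastid were higher. These families, and the SAUR and GASA families below, were formed from annotated products after values had been seen, so their counts are a description. Of 139 genes tested whose annotation names the cytosolic ribosome (15 others were below the filter), 123 were lower and 0 higher in tpt-2 (132 and 1 at an unadjusted p under 0.05), with a median of -0.49. Their summed FPKM was 38236, 42383 and 38263 in Col-0 and 28305, 25383 and 31511 in tpt-2, with no overlap. AT5G58420, a ribosomal protein S4, had 286, 323 and 285 FPKM in Col-0 and 186, 177 and 205 FPKM in tpt-2 (log2 fold change -0.65, SE 0.09, limma adjusted p 0.000463). AT4G17390, of the L23/L15e family, had 449, 501 and 465 FPKM in Col-0 and 317, 304 and 371 FPKM in tpt-2 (log2 fold change -0.51, SE 0.10, limma adjusted p 0.00478), and AT5G16130, of the S7e family, fell by 0.52 on the log2 scale. Fold changes were small, and the 2 genes past 2-fold, AT5G59240 and AT3G09680, were both under 6 FPKM. Col-0 replicate 2 held the highest value for 124 of the 139 (89.2%), against 20.05% of all nuclear genes. The count of lower genes was 94 on omitting that library and 88 on omitting tpt-2 replicate 2. It was 129 with median-ratio scaling and 116 with quantile normalization. By that annotation the class also holds MRPL11, named as a mitochondrial protein (lower, -0.45), AT3G49080 (lower, -0.54) and EMB3136 (not called, 0.22), the latter pair known as genes for organellar ribosomal proteins. These transcripts are short, with a median annotated length of 866 bases; other nuclear genes of 500 to 1000 bases had a median of 0.04 and 9.68% lower. A further 147 ribosomal protein genes, whose annotation did not place them in either class, had 11 higher and 83 lower, with a median of -0.39. Members of these families have close paralogs, so values of single genes are uncertain.

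Nuclear genes for ribosomal proteins annotated to the chloroplast stroma, thylakoid or plastid had 12 of 22 higher and 1 lower, with a median of 0.23. AT5G24490, annotated as a 30S ribosomal protein, had 64.8, 25.8 and 56.6 FPKM in Col-0 and 198, 216 and 156 FPKM in tpt-2 (log2 fold change 2.02, SE 0.27, limma adjusted p 0.000519). SSR16, a small subunit protein, had 659, 610.3 and 622 FPKM in Col-0 and 941, 789 and 948 FPKM in tpt-2 (AT4G34620, log2 fold change 0.5, SE 0.08, limma adjusted p 0.00173), and PSRP5 rose by 0.41. RPL3P, named as a plastid L3 protein, was lower (AT3G17465, -0.35). Median-ratio scaling gave 7 called higher and quantile normalization 17, with 1 called lower in each.

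**Figure D3:**
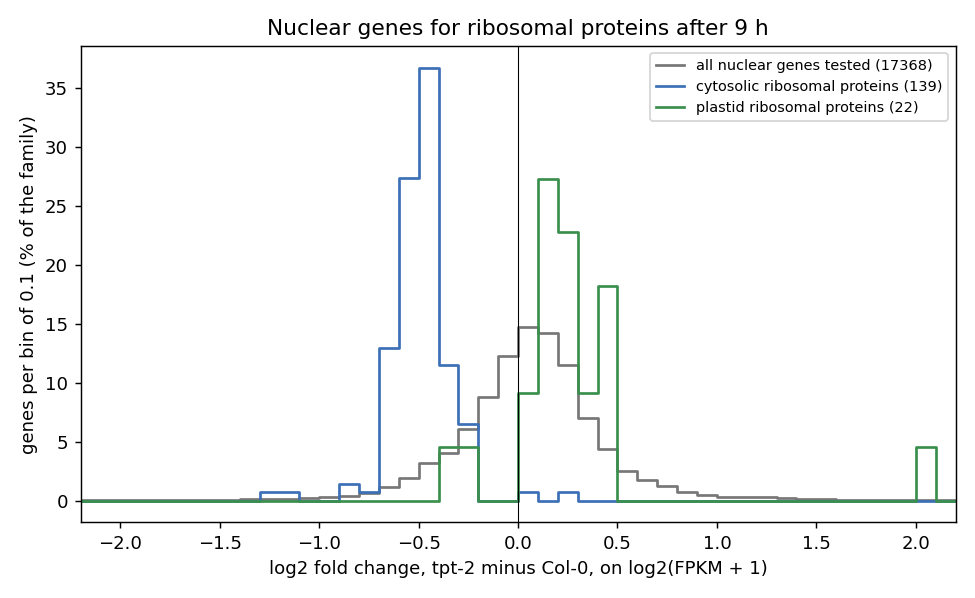
Share of genes (%) per bin of 0.1 in log2 fold change (tpt-2 minus Col-0, on log2(FPKM + 1)) for 139 cytosolic ribosomal protein genes (blue), 22 plastid ribosomal protein genes (green) and all 17368 nuclear genes tested (grey). The cytosolic family has its median at -0.49, the plastid family at 0.23 and all genes at 0.07.

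The chloroplast loci themselves were far higher in tpt-2. Of 103 ATCG loci tested (of 133 listed), 98 (95.1%) were called higher and 0 lower (101 and 0 at an unadjusted p under 0.05), 97 by at least 2-fold, and in 98.1% the ranges of the genotypes were apart. The median log2 fold change was 3.3 and the range 0.37 to 6.81. As the filter took the mean over both genotypes, loci low in Col-0 entered through tpt-2. Among them were 8 at 0 in all 3 Col-0 libraries, so the count and the median depend in part on the filter. ATCG00400 had 0.9096, 0.941 and 0.8396 FPKM in Col-0 and 106, 99.3 and 888 FPKM in tpt-2 (log2 fold change 6.81, SE 0.76, limma adjusted p 0.000172), ATCG00020 had 8.03, 11.1 and 7.34 FPKM in Col-0 and 634, 588 and 3292 FPKM in tpt-2, and ATCG00490 had 4.35, 7.76 and 6.17 FPKM in Col-0 and 347, 353 and 1960.2 FPKM in tpt-2. In each of the 3 the tpt-2 libraries lay above all Col-0 libraries, and the third tpt-2 replicate lay above the other two; over loci its value was a median of 5.05 times their mean. Without that library 93 loci were called higher and the median was 2.58. The 10 loci highest in Col-0 had a median difference of 1.35, and ATCG01020, the highest of all in Col-0, was not called (0.37). The libraries were made from mRNA bound to poly-T beads, and chloroplast transcripts are mostly without poly(A) tails, so these levels are the part of each RNA that such beads retained, and amount and retention cannot be told apart. Nuclear genes for plastid transcription and RNA processing had 2 of 12 higher and 0 lower (4 and 0 at an unadjusted p under 0.05), and 0 after median-ratio scaling or on omitting Col-0 replicate 1 or 3, or tpt-2 replicate 1 or 2. Of 13 ATMG loci, 2 (15.4%) were called higher, ATMG01370 (0.82) and ATMG00020 (0.77), and 0 lower (2 and 0 at an unadjusted p under 0.05).

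**Figure D4:**
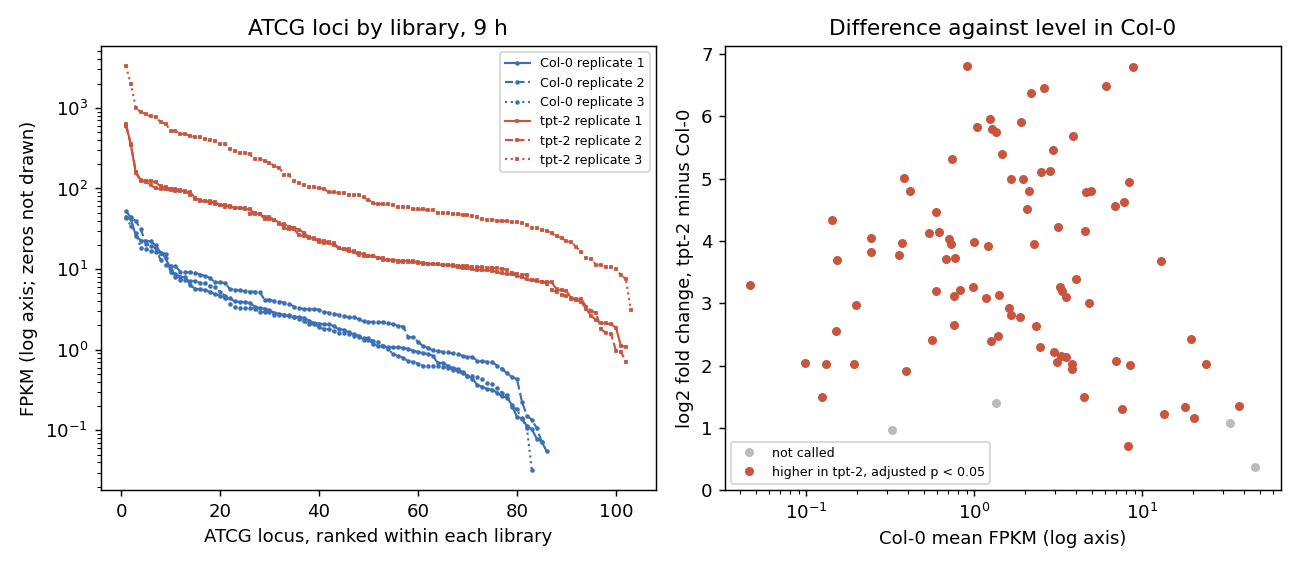
Left, FPKM (log axis) of 103 ATCG loci ranked within each library, zeros not drawn; right, log2 fold change against the Col-0 mean FPKM (log axis), without the 8 loci at 0 in all Col-0 libraries. The tpt-2 libraries lie above the Col-0 libraries at each rank drawn for both, and tpt-2 replicate 3 lies above the other two.

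Phosphate starvation genes were lower. TPT exchanges phosphate for triose phosphate, and these genes respond to low cellular phosphate through PHR1. Of 17 tested, 11 were lower and 0 higher (13 and 0 at an unadjusted p under 0.05), with a median of -0.54. PS2, a phosphatase gene with P1BS in the window shown, had 6.28, 8.05 and 11.9 FPKM in Col-0 and 0.482, 1.18 and 2.03 FPKM in tpt-2 (AT1G73010, log2 fold change -2.15, SE 0.27, limma adjusted p 0.000359). MGD3, which makes galactolipid when phosphate is scarce, had 12.9, 13.9 and 11.1 FPKM in Col-0 and 2.83, 2.895 and 2.45 FPKM in tpt-2 (AT2G11810, log2 fold change -1.87, SE 0.22, limma adjusted p 0.0002799). PAP17, an acid phosphatase gene (AT3G17790, -1.42), and SRG3, a glycerophosphodiester phosphodiesterase gene (AT3G02040, -1.4), were also lower. In these 4 genes no Col-0 value lay below a tpt-2 value. With Col-0 replicate 2, tpt-2 replicate 1 or tpt-2 replicate 2 omitted, 7 were called lower. Col-0 replicate 2 held the highest value for 13 of the 17 (76.5%), against 20.05% of all nuclear genes, and its part was not tested.

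Nitrogen genes were mixed, with 4 of 20 higher and 3 lower. The cytosolic glutamine synthetase gene GLN1;2, which reassimilates ammonium, had 89.9, 67.7 and 84.4 FPKM in Col-0 and 167, 195 and 155 FPKM in tpt-2 (AT1G66200, log2 fold change 1.09, SE 0.11, limma adjusted p 9.67e-05), and GLN1;4 rose by 0.96 and the glutamate synthase gene GLT1 by 0.61. The ferredoxin reductase gene RFNR1 (AT4G05390, -0.55) was lower, and the number lower was 1 on omitting Col-0 replicate 2 or tpt-2 replicate 2. Sulfate genes had 2 of 12 higher and 4 lower, LSU2, a marker of low sulfur, falling by 0.6 on the log2 scale. The number lower was 2 on omitting Col-0 replicate 2 or tpt-2 replicate 1 and 1 on omitting tpt-2 replicate 2. The number higher was 1 after median-ratio scaling, after quantile normalization and on omitting replicate 1 or 2 of either genotype, and 0 in a fit of the 6 libraries only. Iron deficiency genes had 3 of 7 lower and 0 higher (4 and 1 at an unadjusted p under 0.05), among them AT1G47395, a gene for a small signalling peptide, with 3.47, 3.01 and 2.51 FPKM in Col-0 and 0.851, 1.51 and 0.913 FPKM in tpt-2 (log2 fold change -0.94, SE 0.20, limma adjusted p 0.00612). A further 4 of the iron list were below the filter. Its number lower was 2 on omitting Col-0 replicate 1 or 2, or tpt-2 replicate 1 or 3, and in a fit of the 6 libraries only. On omitting Col-0 replicate 3 or tpt-2 replicate 2 that number was 4.

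Aliphatic glucosinolate synthesis, which makes methionine-derived defence compounds, was lower in tpt-2 by small steps. Of 21 genes, 13 were lower and 0 higher (13 and 0 at an unadjusted p under 0.05), with a median of -0.33. FMO GS-OX3, a side-chain S-oxygenase, had 61.5, 63.4 and 56.2 FPKM in Col-0 and 38.1, 39.2 and 41.5 FPKM in tpt-2 (AT1G62560, log2 fold change -0.59, SE 0.07, limma adjusted p 0.000225), and BCAT3, an aminotransferase of chain elongation, fell by 0.44 on the log2 scale. No fall reached 2-fold. The count was 11 to 14 with any 1 library left out. The indole branch had 1 of 7 higher, its activator MYB51 with 1.096, 1.04 and 2.22 FPKM in Col-0 and 4.15, 3.61 and 4.22 FPKM in tpt-2 (AT1G18570, log2 fold change 1.05, SE 0.19, limma adjusted p 0.00272).

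Defence, wound and stress lists gave few calls. Salicylic acid genes had 4 of 18 higher and 1 lower. PR1 was among the higher ones (AT2G14610, limma adjusted p 0.0374, lost in 7 of 15 alternatives). PR5 was the lower one (AT1G75040, limma adjusted p 0.0235, lost in 4 of 16 alternatives). The number higher was 1 on omitting tpt-2 replicate 1 and 2 on omitting Col-0 replicate 1 or 2, or tpt-2 replicate 2 or 3. PAD4, an immune regulator, had 3.09, 3.77 and 3.202 FPKM in Col-0 and 7.23, 5.65 and 6.88 FPKM in tpt-2 (AT3G52430, log2 fold change 0.8, SE 0.20, limma adjusted p 0.0147) and lost its call without tpt-2 replicate 1. Jasmonate genes had 1 of 22 lower, VSP1, and 0 higher (4 and 0 at an unadjusted p under 0.05), and their median of -0.69 was -0.13 without Col-0 replicate 3. LOX2, a lipoxygenase of jasmonate synthesis, had 575, 484 and 1452 FPKM in Col-0 and 423, 462 and 473 FPKM in tpt-2. VSP1, a storage protein induced by wounding, had 65.2, 82.8 and 542 FPKM in Col-0 and 28.4, 51.7 and 38.4 FPKM in tpt-2 and lost its call without Col-0 replicate 3 or any 1 of the tpt-2 libraries, and in a fit of the 6 libraries only, without the filter or the trend, or after quantile normalization. Of the list, 3 were lower without Col-0 replicate 1. Endoplasmic reticulum chaperones had 0 of 10 called by limma (0 higher and 2 lower at an unadjusted p under 0.05). Col-0 replicate 3 was the highest library for all 10, against 14.4% of all nuclear genes. Abscisic acid and cold genes had 0 of 18 called (1 higher and 2 lower at an unadjusted p under 0.05). COR15A, a cold-induced protein of the stroma, had 2358, 3407 and 1652 FPKM in Col-0 and 393, 484 and 1178 FPKM in tpt-2 (log2 fold change -1.96, limma adjusted p 0.138). Heat shock genes had 0 of 12 higher and 1 lower (1 and 1 at an unadjusted p under 0.05), the plastid chaperone gene CLPB3, with 30.2, 47.8 and 30.2 FPKM in Col-0 and 19.7, 18.1 and 21.6 FPKM in tpt-2 (AT5G15450, log2 fold change -0.8, SE 0.15, limma adjusted p 0.00333), and 3 were higher on omitting Col-0 replicate 3. Scavengers of reactive oxygen had 1 of 11 higher and 2 lower (1 lower on omitting tpt-2 replicate 1). The number higher was 0 on omitting Col-0 replicate 2 or tpt-2 replicate 1, 2 on omitting Col-0 replicate 3 and 3 on omitting tpt-2 replicate 3. The iron superoxide dismutase gene FSD1 had 697, 626 and 787 FPKM in Col-0 and 222, 358 and 546 FPKM in tpt-2 (AT4G25100, log2 fold change -0.99, SE 0.26, limma adjusted p 0.0172), a call lost on omitting tpt-2 replicate 1 and in a fit of the 6 libraries only. DREB2A was the 1 of 11 stress transcription factor genes called, higher by 0.58. The mitochondrial stress marker AT2G21640 had 5.96, 5.397 and 12.7 FPKM in Col-0 and 18.4, 27.4 and 18.3 FPKM in tpt-2 (log2 fold change 1.38, SE 0.29, limma adjusted p 0.00587), and of 9 genes of alternative respiration and mitochondrial stress it was the 1 called higher (4 on omitting Col-0 replicate 3, and 2 on omitting tpt-2 replicate 3). NDA1, an internal NADH dehydrogenase gene, was the 1 called lower, a call lost in a fit of the 6 libraries only; 2 were lower on omitting Col-0 replicate 1 or after quantile normalization. Senescence genes had 1 of 6 higher, lost on omitting Col-0 replicate 1 or 2, or tpt-2 replicate 2, and after median-ratio scaling.

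Growth genes were higher in part. EXPA8, an expansin that loosens cell walls, had 9.39, 3.91 and 2.67 FPKM in Col-0 and 55.8, 44.2 and 38.3 FPKM in tpt-2 (AT2G40610, log2 fold change 3.02, SE 0.52, limma adjusted p 0.00203), and XTH4, a xyloglucan transglucosylase, had 114, 58.8 and 65.7 FPKM in Col-0 and 203, 181 and 149 FPKM in tpt-2 (AT2G06850, log2 fold change 1.2, SE 0.21, limma adjusted p 0.00222). EXPA10 went the other way, with 84.9, 118 and 141 FPKM in Col-0 and 47.9, 47.9 and 72.2 FPKM in tpt-2 (AT1G26770, log2 fold change -1.02, SE 0.23, limma adjusted p 0.00876). Of 15 wall loosening genes, 6 were higher and 2 lower, and on omitting Col-0 replicate 2 the counts were 3 and 1. The number lower was 4 on omitting Col-0 replicate 3 and 1 on omitting tpt-2 replicate 1 or 2. GASA6, a gibberellin-regulated peptide gene, had 4.56, 2.85 and 1.904 FPKM in Col-0 and 41.3, 37.4 and 34.3 FPKM in tpt-2 (AT1G74670, log2 fold change 3.28, SE 0.41, limma adjusted p 0.000351), and 4 of the 7 GASA genes tested were higher, GASA1 by 1.59 on the log2 scale, and 1 was lower, AT3G10185, by 0.69 (limma adjusted p 0.0117); 9 others were below the filter. Type-A cytokinin response regulators, which are induced by cytokinin, had 1 of 8 higher and 1 lower. The lower call, ARR7, was lost on omitting Col-0 replicate 2 or tpt-2 replicate 1 or 2 and in a fit of the 6 libraries only, and 2 were higher on omitting tpt-2 replicate 2. Auxin-induced genes had 5 of 10 higher and 0 lower (5 and 0 at an unadjusted p under 0.05), among them the repressor gene IAA29 with 2.77, 1.75 and 0.811 FPKM in Col-0 and 9.399, 4.11 and 4.86 FPKM in tpt-2 (AT4G32280, log2 fold change 1.35, SE 0.29, limma adjusted p 0.00734). Only 2 were called on omitting Col-0 replicate 2 or tpt-2 replicate 1 or after quantile normalization, and 3 on omitting Col-0 replicate 3 or tpt-2 replicate 2. The family of SAUR-like growth genes had 38 of 78 below the filter, and of the other 40, 13 were higher and 0 lower (20 and 2 at an unadjusted p under 0.05). SAUR19 (0.36 and 1.86 FPKM in Col-0 and tpt-2), AT4G34790 (0.62 and 3.39) and AT3G53250 (0.90 and 4.47) passed the filter through tpt-2, so the count is no support for a direction. It was 8 higher and 1 lower after median-ratio scaling and after quantile normalization. Within this family tpt-2 replicate 1 held the highest value for 25 of the 40 (62.5%), against 27.0% of all nuclear genes. The number higher was 1 on omitting that library, 5 on omitting Col-0 replicate 2 or tpt-2 replicate 2, and 7 on omitting Col-0 replicate 3. These are families of close copies, so single genes are uncertain.

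Part of the clock and light signalling genes was higher. Of 18 clock genes tested (4 others were below the filter), 7 were higher and 0 lower (9 and 0 at an unadjusted p under 0.05), with a median of 0.35. The number higher was 5 on omitting tpt-2 replicate 1 or 2, 6 on omitting any 1 Col-0 library and 9 on omitting tpt-2 replicate 3. RVE2, a MYB factor gene, had 36.7, 37.01 and 38.5 FPKM in Col-0 and 55.2, 55.3 and 62.1 FPKM in tpt-2 (AT5G37260, log2 fold change 0.61, SE 0.09, limma adjusted p 0.000667), and ELF3, of the evening complex, had 25.9, 24.7 and 26.8 FPKM in Col-0 and 39.5, 39.2 and 35.1 FPKM in tpt-2 (AT2G25930, log2 fold change 0.54, SE 0.08, limma adjusted p 0.000662). BOA and TOC1, whose windows held the evening element, rose by 0.7 and 0.41. Light signalling had 7 of 21 higher and 0 lower (8 and 0 at an unadjusted p under 0.05), and 4 on omitting Col-0 replicate 3 or tpt-2 replicate 2 or after median-ratio scaling. The blue light receptor gene CRY1 had 20.5, 17.7 and 20.1 FPKM in Col-0 and 35.4, 34.5 and 27.8 FPKM in tpt-2 (AT4G08920, log2 fold change 0.71, SE 0.10, limma adjusted p 0.000556). For the phytochrome gene PHYA these were 8.497, 7.12 and 7.46 FPKM in Col-0 and 14.5, 12.6 and 11.1 FPKM in tpt-2 (AT1G09570, log2 fold change 0.66, SE 0.11, limma adjusted p 0.00193). In both genes the genotypes did not overlap. HFR1, a bHLH factor gene of shade responses, rose by 1.41 from Col-0 values below 1 FPKM, and so met the filter through tpt-2.

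Among the 10 largest nuclear changes in each direction, 3 loci without a known function stood near 0 in 1 genotype. AT1G27565, an uncharacterized protein gene on chromosome 1, rested on 125, 130 and 135 fragments in Col-0 and on 0, 0 and 1 in tpt-2. The ratio of their totals, each scaled to library size, was 401 (95% Clopper-Pearson interval 71.6 to 15895, counting error only). At 18 h the counts were 158, 90 and 86 against 1, 0 and 0. The next gene, AT1G27570, was at 0 in all 6 libraries. AT2G01422, a non-coding RNA on chromosome 2, had 6.48, 27.4 and 43.7 FPKM in Col-0 and 1.31, 0.422 and 0 FPKM in tpt-2 (log2 fold change -3.83, SE 0.57, limma adjusted p 0.000908). PIN4, the neighbouring auxin exporter gene, was higher in tpt-2, with 28.6, 29.7 and 27.4 FPKM in Col-0 and 50.6, 42.3 and 43.5 FPKM in tpt-2 (AT2G01420, log2 fold change 0.65, SE 0.10, limma adjusted p 0.00112). AT3G05945, a non-coding RNA on chromosome 3, had 1.86, 0.577 and 0.515 FPKM in Col-0 and 50.5, 32.8 and 33.95 FPKM in tpt-2 (log2 fold change 4.37, SE 0.32, limma adjusted p 1.11e-05). For these 3 loci the change of the genotype effect between 9 h and 18 h was not called. AT2G05540, a glycine-rich protein gene, had 1.33, 1.08 and 1.402 FPKM in Col-0 and 28.2, 30.8 and 20.9 FPKM in tpt-2 (log2 fold change 3.59, SE 0.49, limma adjusted p 0.0005599). CSLA01, a glucomannan synthase gene, had 13.3, 9.36 and 69.97 FPKM in Col-0 and 0.727, 0.228 and 1.07 FPKM in tpt-2 (AT4G16590, log2 fold change -3.74, SE 0.59, limma adjusted p 0.00128), with Col-0 replicate 3 high.

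Whether the genotype effect held with time was tested as the difference between the effects at 18 h and 9 h, fitted over all 12 libraries. This difference passed in 833 of 17484 genes. For AT1G23390 it was -2.57 and for AT2G33830 -2.5. The starvation list had a median effect of 1.12 at 9 h and 0.31 at 18 h, cytosolic ribosomal proteins -0.49 and -0.12, and plastid ribosomal proteins 0.23 and -0.13, beside 0.07 and 0.09 for all nuclear genes. Among single members the difference was called in 5 of 13, 9 of 139 and 11 of 22. Aliphatic glucosinolate genes had medians of -0.33 and -0.3, with 1 of 21 called. For the ATCG loci 0 of 103 differences were called. Genes and families were in part chosen with their 9 h effect in view, which favours a smaller effect at 18 h.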

How the data were processed

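Leaf mRNA was bound to poly-T beads and made into directional libraries with dUTP, per the labels' protocols. The authors deposited FPKM for each library in 1 table. CASAVA, HISAT2 2.0.5, featureCounts 1.5.0-p3, DESeq2 1.20.0 and build TAIR10 are named in the submitters' processing notes without roles; filters and whether counting used strand are not given in the sources used here, so antisense and overlapping genes are uncertain. FPKM is relative within a library, so the scaling alternatives bear on each sign. Of the low values, 98.1 to 98.4% in the 9 h libraries were whole fragments within 0.05.

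Genes averaging 1 FPKM or more across the 9 h libraries were tested with limma 3.58.1 (R 4.3.3, mean-variance trend) on log2(FPKM + 1), over all 12 libraries and 4 groups, with Benjamini-Hochberg adjustment over 17484 genes and a threshold of 0.05. The replicates are biological per the labels. Genes were named by a rule: TPT, the 10 largest called nuclear changes in each direction (genotypes apart in every library, higher mean 5 FPKM or more), the 4 largest called changes of each list, and the 4 largest of the ATCG and ATMG loci. All of these were followed through the alternatives, but the text prints only part of the list members. Among those left out are the antenna genes LHCB4.2 (higher) and LHCB4.3 (lower), and WES1, DFL1, XTH17 and PIF4 (all higher). Lists and members were chosen with earlier results of these data known, and genes named beyond the rule (26 in the tables of alternatives, SEN1, AT1G15670 and LOX2) were chosen after their values were seen. Of 32833 identifiers, 32548 matched RefSeq TAIR10.1. Names are RefSeq's, except that TPT, BAM3, MGD3, GLN1;2, BZIP11, BZIP63, PPT1 and ISA2 are common symbols for genes it lists as APE2, CT-BMY, MGDC, GSR2, GBF6, BZO2H3, CUE1 and DBE1. Chloroplast and mitochondrial loci are given by identifier. Promoter windows were cut from that genome, and the telo-box and site II were chosen after values had been seen. On simulated data for the 9 h comparison with 17368 genes, 79.5% of 200 genes changed 2-fold were recovered, and 6.47% of 170 calls were unchanged genes. The simulation used an assumed spread, independent genes and no library standing apart, and changed only those 200 genes. Its rates are therefore not those of the real comparison. Alternatives were other scalings, filters, pseudocount 0.1, a fit without trend, a replicate block, the 6 libraries alone and each library omitted in turn. Python 3.11.15, numpy 2.4.6, scipy 1.17.1, pandas 2.3.3 and matplotlib 3.10.9 were used.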

Additional observations from a re-analysis of the deposited data

Results flagged for a closer look

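For 48 of the genes named, the genotype effect at 18 h differed from that at 9 h by the interaction term of the limma fit. The threshold was an adjusted p under 0.05 over all genes, which 833 of 17484 genes and 4.79% of nuclear ones passed. Most of the named genes were taken for a large called effect at 9 h, which the difference subtracts. That choice favours differences of the opposite sign, so the shares over all genes are no like comparison. Values are the 18 h effect minus the 9 h effect on the log2 scale, so that a sign opposite to the 9 h effect means a smaller effect at 18 h or one of the other sign. Among genes lower in tpt-2 at 9 h, the anthocyanin enzyme genes had 3.04 for DFR, 2.72 for LDOX, 2.35 for TT7, 2.39 for AT4G14090, 2.35 for UF3GT and 2.34 for AT5MAT. Starch genes had 1.73 for GBSS1, 1.38 for APL3, 0.64 for SBE2.2, 0.54 for ISA2, 1.13 for SEX4, 1.51 for BAM3 and 0.77 for ISA3. For carriers and cytosolic sugar genes the values were 2.11 for GPT2, 0.42 for DIT1, 1.29 for UGP1, -0.64 for UGP2 and -2.46 for STP14. Sugar starvation and trehalose genes higher at 9 h had -2.50 for AT2G33830, -1.38 for DYL1, -1.86 for BGAL4, -1.33 for TPS8, -1.62 for TPS11 and -1.18 for TPS9. The autophagy and F-box genes had -1.39 for ATG8E, -0.83 for ATG8F, -2.57 for AT1G23390 and -1.92 for AT1G80440. In plastid metabolism the values were -0.58 for CP12-2, -0.48 for AT3G60750, -0.67 for G6PD1 and -0.67 for HEMC, CP12-2 being a Calvin cycle regulator and AT3G60750 a transketolase gene. Nutrient genes had 1.11 for PAP17, -0.83 for GLN1;2, 0.69 for RFNR1, 0.71 for LSU2 and 1.24 for AT1G47395. Sugar-responsive factors had -1.09 for BZIP1 and 1.16 for BZIP11. Ribosomal protein genes had 0.54 for AT5G58420, 0.60 for AT3G49080, -2.27 for AT5G24490, -0.69 for SSR16 and -0.47 for PSRP5. The others were -0.79 for DREB2A, -0.64 for RVE2, -0.48 for ELF3 and 1.13 for ATMG01370.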

How the results depend on the processing

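The nuclear counts changed with the design and with single libraries. Fitting only the 6 libraries of 9 h gave 1512 nuclear genes higher, and median-ratio scaling gave 1467. Whether replicate numbers pair plants could not be decided. Deviations of equally numbered libraries correlated at 0.137, -0.269 and -0.123, and 3 libraries per group are too few to tell. A replicate block gave 2442 calls in all, 2343 nuclear, 1399 higher and 944 lower, and 79 cytosolic ribosomal protein, 6 phosphate starvation and 8 aliphatic glucosinolate genes lower. With any 1 library omitted, all calls ranged from 2410 to 3953, nuclear calls from 2312 to 3858, higher calls from 1308 to 2357 and lower calls from 964 to 1501. The count at 2-fold and that of organelle loci stayed within 1.5 times under each alternative run. For the 159 genes given by the naming rule or added to it, 2522 alternative values included 239 that lost the threshold and 0 that reversed. A further 2 gained it (COR15A in the fit of 6 libraries, EMB3136 on omitting Col-0 replicate 1). In all, 113 genes stayed on their side of the threshold throughout. The causes were not tested. Depth recovered from the values was 12.4 to 14.3 M fragments, and 3 replicates per group limit small changes.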
